A study of Mus musculus with 32 samples.

Results

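The miR-297, miR-466, miR-467 and miR-669 families are described here across mouse mesenteric arteries after infusion of angiotensin II (Ang II). They are the families whose hairpins fill an intron of the Sfmbt2 gene. Members were taken by name, as every entry of the deposited miRNA profile whose name, without the species prefix, starts with one of these 4 family numbers followed by a letter, a hyphen or the end of the name. This gave 80 of 1403 names. Of these, 66 (82.5%) had at least 1 read in at least 1 library and 14 were at 0 in all 32 libraries. Some names had equal reads in every library and were counted once, which left 50 distinct rows above 0, of 1030 in the whole profile. In 11 of the 50 rows several names stood together, and those rows covered 27 names. Such joint rows are written with all their names at first use and with the first name after that.

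The arteries came from male C57BL/6J mice of 10 to 12 weeks. For 7 or 14 days, mice carried osmotic mini pumps that delivered Ang II at 1000 ng/kg/min subcutaneously, or were sham controls. With 2 treatments at 2 times there were 4 groups, each with 8 libraries from 10 mice, and all 4 shared strain, sex and age range. They are called 7-day and 14-day Ang II and 7-day and 14-day sham. The vessels were cleaned of fat and veins before RNA was extracted, so each library is bulk RNA of whole arteries, in which fewer cells of a type and less RNA per cell cannot be told apart.

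A microRNA is cut from a hairpin, and either arm of it, named 5p or 3p, can become the mature strand that pairs with messenger RNAs through its seed near the 5′ end. Sfmbt2 encodes a polycomb-group protein, and in the mouse it is imprinted, expressed from the paternal allele, and needed for growth of the placenta. One of its introns holds many near-copies of a few hairpins, a cluster known from rodents. In mouse cells miR-467 is known to repress thrombospondin-1, miR-466l to stabilise interleukin-10 mRNA, and miR-669a to repress the muscle factor MyoD.

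In the mouse annotation (GRCm38), 72 hairpins of these families lie inside Sfmbt2, which spans chr2:10370440-10595253 on the plus strand. All 72 are on that strand, between positions 10466663 and 10518279, a stretch of 51.6 kb. The stretch overlaps 0 exons and falls in intron 11 of the principal transcript. The other 10 hairpins of the families lie elsewhere in the genome. By place, 64 names belong to hairpins of Sfmbt2 alone, 5 to hairpins both in and outside the gene, 9 to hairpins outside it, and 2 could not be matched to a hairpin.

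RefSeq (GRCm38.p6) gave mature sequences for 8 of the names, all from hairpins outside Sfmbt2. Of these, 5 are shown as examples of longer and shorter runs of alternating purines and pyrimidines. They are written 5′ to 3′ with the seed (bases 2 to 8) in capitals. They lie at chr13:17747552-17747573 (miR-466i-3p, plus strand), chr3:85467396-85467418 (miR-466k, plus strand), chr3:28419988-28420007 (miR-466q, plus strand), chr5:34732872-34732892 (miR-467g, minus strand) and chr3:115979905-115979924 (miR-669n, plus strand).
miR-466i-3p: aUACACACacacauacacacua
miR-466k: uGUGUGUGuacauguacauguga
miR-466q: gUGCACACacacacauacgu
miR-467g: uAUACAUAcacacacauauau
miR-669n: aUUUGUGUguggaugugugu
The longest run in which purines and pyrimidines strictly alternate had a median of 20 bases over the 8 sequences. It was 8 bases in miR-669n and 22 in miR-466k. The 8 sequences include none of miR-297 and none from the hairpins in Sfmbt2, so they do not describe those. Over 1666 mature sequences of other mouse miRNAs the median was 4. The 8 seeds were all different. Of these 8, miR-466i-3p had the highest level, with 37 reads spread over 5 of 32 libraries, while miR-466k had 3 reads in 2 libraries and miR-669n had 1 read in 1 library.

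The families were present at very low levels. Values are the deposited normalised reads, here called RPM. They are whole reads scaled per library in the manner of reads per M, where M is mega. Summed over all deposited rows they ran from 726973 to 1674000 per library, so an RPM here is not a fixed share of a library. Over 32 libraries the 50 rows together held 11.3 ± 2.27 RPM (SD, n = 32), or 85 to 553 reads per library, of 11.4 to 18.8 M (M, mega) in distinct rows. The smooth muscle marker miR-143-3p had a mean of 474093 RPM in the same libraries. The Dlk1-Dio3 cluster, another large imprinted miRNA cluster of the mouse, held 10227 ± 2465 RPM (SD, n = 32) in 88 distinct rows, and was above the 4 families in 32 of 32 libraries. Of the 50 rows, 1 (2%) had a mean of 1 RPM or more, 22 (44%) had 0.1 RPM or more and 0 reached 10 RPM. Of the other 980 rows, 55.3% had 1 RPM or more, and the median row had 1.785 RPM against 0.0777 RPM among the 50. The plot of all distinct rows by rank shows the families in the lower part of the profile.

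**Figure D1:**
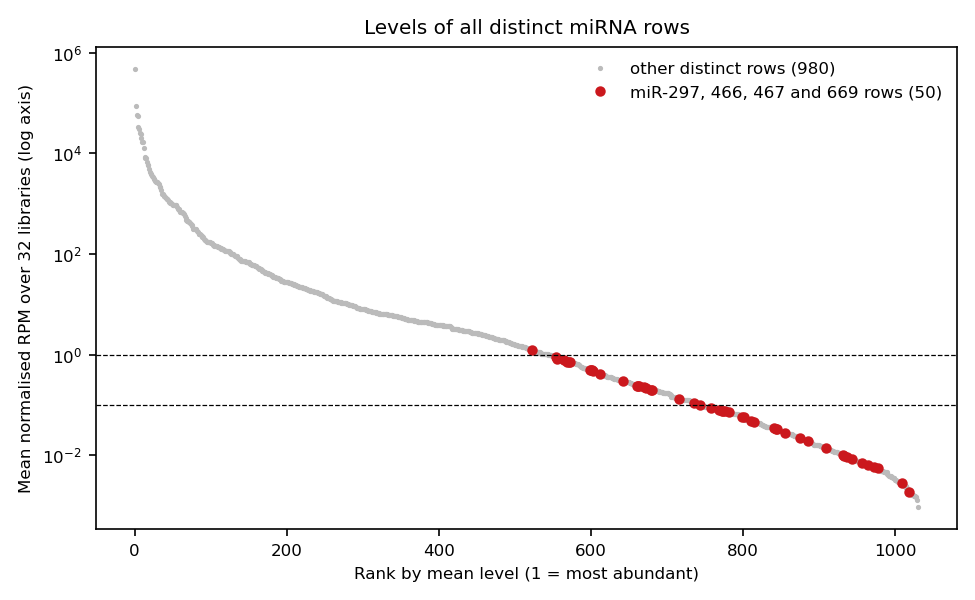
Mean normalised RPM over 32 libraries (log axis) of every distinct miRNA row against its rank, with the 50 rows of the 4 families in red and the other 980 in grey, and dashed lines at 0.1 and 1 RPM. One red point lies above the line at 1 RPM, at rank 522 of 1030.

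Detection was patchy. Of the 50 rows, 4 had reads in all 32 libraries, 23 in at least 16, and 21 in at most 5. The rows found in every library were miR-297a-3p/miR-297b-3p/miR-297c-3p, miR-466d-3p, miR-669c-5p and miR-467d-5p. The 14 names at 0 throughout included miR-466l-5p and miR-466l-3p, miR-467b-3p, miR-467f, miR-669c-3p and miR-669j. A count of 0 allows up to 3 reads, which in these libraries was 0.0888 to 0.351 RPM, a limit that covers counting error alone. Names of hairpins in Sfmbt2 alone were detected in 53 of 64 cases. Names of hairpins elsewhere were detected in 6 of 9 cases and reached 0.0761 RPM at most.

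Ang II and sham libraries of the same time had summed levels that differed by less than the error of the difference. In 7-day sham it ran from 7.16 to 13.8 RPM with a median of 9.65, and in 7-day Ang II from 8.95 to 14.0 RPM with a median of 11.3. In 14-day sham it ran from 9.15 to 14.5 RPM with a median of 10.9, and in 14-day Ang II from 9.17 to 16.4 RPM with a median of 11.7. All 4 ranges overlapped. The means were 10.4 ± 2.52 in 7-day sham, 11.1 ± 1.75 in 7-day Ang II, 11.50 ± 2.16 in 14-day sham and 12.3 ± 2.58 RPM in 14-day Ang II (SD, n = 8 each). Ang II minus sham was 0.656 ± 1.09 RPM at 7 days and 0.756 ± 1.19 RPM at 14 days (SE). At 7 days its sign differed with the leading digits of the mouse number. For mice numbered from 27 the means were 11.8 RPM with Ang II (5 libraries) and 9.62 in sham (4). For those numbered from 28 they were 9.94 (3) and 11.3 RPM (4). At 14 days, for mice numbered from 26, they were 13.7 (5) and 12.15 RPM (6). As a share of reads in distinct rows, without the authors' scaling, the mean at 14 days was 0.00117% ± 0.000434 in sham (SD, n = 8). It was 0.00151% ± 0.000663 with Ang II (SD, n = 8). These shares rest on the library totals. Under them the 14-day Ang II mean stood further from sham than under the deposited scaling (Ang II over sham 1.29, against 1.07). The ranges still overlapped. Much of this lay in 1 library, replicate 5 of 14-day Ang II, with 0.00297% (553 reads), where the next highest had 0.00179%. The medians were 0.00116% in sham and 0.00123% with Ang II. The sign of Ang II minus sham turned at both times when the rows of a repeated name were summed in place of taking the highest. The means were then 36.1 RPM with Ang II and 37.6 RPM in sham at 7 days, and 37.2 and 40.7 RPM at 14 days. Several rows were held by 38 names, and the rows of a name differed in value for 10 of these. For the others the sum counted equal values again, as with the 11 equal rows of miR-467a-3p, which weights names by their number of rows.

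The number of rows with at least 1 read was 22.75 ± 2.55 per library in 7-day sham, 21.6 ± 2.88 in 7-day Ang II, 21 ± 5.07 in 14-day sham and 24.75 ± 4.65 in 14-day Ang II (SD, n = 8 each). The ranges were 20 to 28, 17 to 26, 14 to 28 and 19 to 31 in that order, and they overlapped. At the depth of the shallowest library, 11.4 M reads, the expected means were 21.7 and 20.4 in 7-day and 14-day sham and 21 and 23.6 in the matching Ang II groups. Rows with a read in any library of a group numbered 44, 42, 35 and 44.

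**Figure D2:**
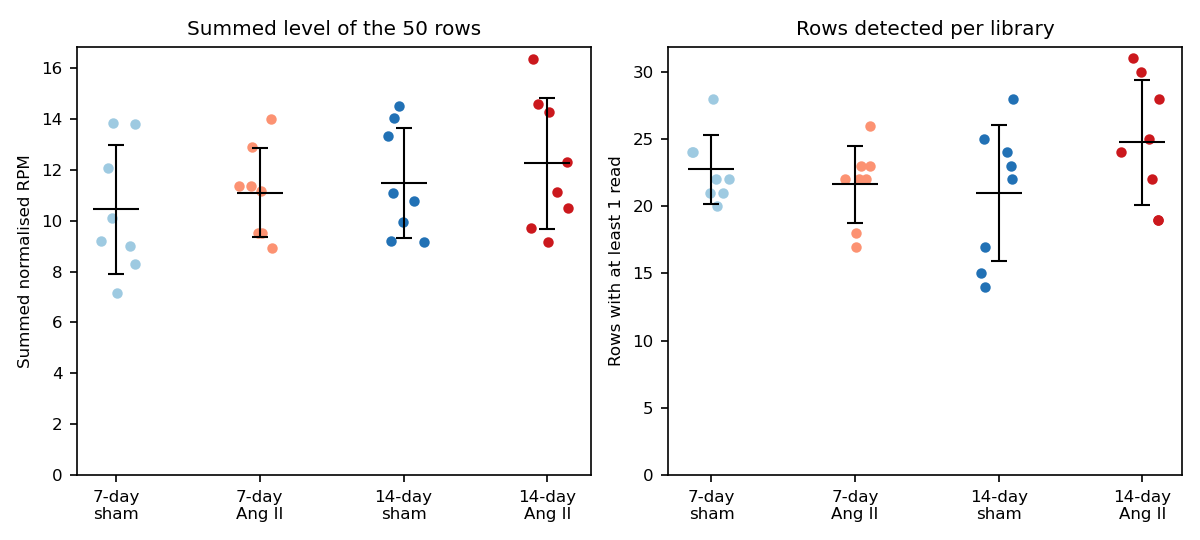
Summed normalised RPM of the 50 rows (left) and rows with at least 1 read (right) in each library, by group, with 8 libraries a group. Bars are the mean and SD. The groups overlap in both panels, with group means between 10.4 and 12.3 RPM and between 21 and 24.75 rows.

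By family, the 20 rows of miR-669 held the most, 4.0 ± 1.18 RPM (SD, n = 32), from 30 names of which 23 were detected. The 8 rows of miR-467 held 2.96 ± 0.900 RPM and the 18 rows of miR-466 held 2.93 ± 1.01 RPM. The 4 rows of miR-297 held 1.43 ± 0.835 RPM. A few rows carried most of the signal, since the 12 highest made 72.5% of the summed level and the 5 highest 39.3%. At 14 days the miR-669 sum was 3.58 ± 0.886 RPM for sham, against 4.50 ± 1.21 RPM with Ang II (SD, 8 libraries each), and the libraries of both groups overlapped. At 7 days it was 3.81 ± 1.22 in sham and 4.11 ± 1.38 RPM with Ang II. The miR-297 sum at 14 days was 1.88 ± 0.804 in sham and 1.51 ± 0.727 RPM with Ang II, also with overlap.

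The highest row was the miR-297a-3p row, the sole one above 1 RPM. Its level ran from 0.247 to 2.76 RPM with a median of 0.732 in 7-day sham, and from 0.213 to 2.50 with a median of 0.658 in 7-day Ang II. In 14-day sham it ran from 0.803 to 2.93 RPM with a median of 1.52, and in 14-day Ang II from 0.278 to 2.02 with a median of 1.34. The 14-day sham libraries were all above the 7-day sham median, but the ranges of all groups overlapped. Just below it stood miR-669b-5p with a mean of 0.881 RPM, followed by miR-466d-3p with 0.832, miR-467a-3p/miR-467d-3p with 0.762 and miR-669c-5p with 0.725 RPM. The next 4 were miR-467d-5p with 0.710, miR-467c-5p with 0.705, miR-467e-5p with 0.495 and miR-669d-5p with 0.486 RPM. The joint row miR-669a-3p/miR-669o-3p had 0.483, miR-466c-5p had 0.475 and miR-466h-5p had 0.409 RPM. The lowest of the 22 rows with a mean of 0.1 RPM or more was miR-466h-3p at 0.110, and miR-297b-5p lay just outside at 0.0984 RPM.

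Levels varied widely between libraries. Over the 32 libraries the coefficient of variation of the 22 rows ran from 36.3% for miR-467d-5p to 142.9% for miR-466h-3p, with a median of 88.2%. Over their 231 pairs, Spearman's rho across the 32 libraries had a median of 0.0423, a lowest value of -0.412 and a highest of 0.546, as a description of sparse counts that share library and depth. The heat map of the 22 rows shows bright and dark cells in every group.

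**Figure D3:**
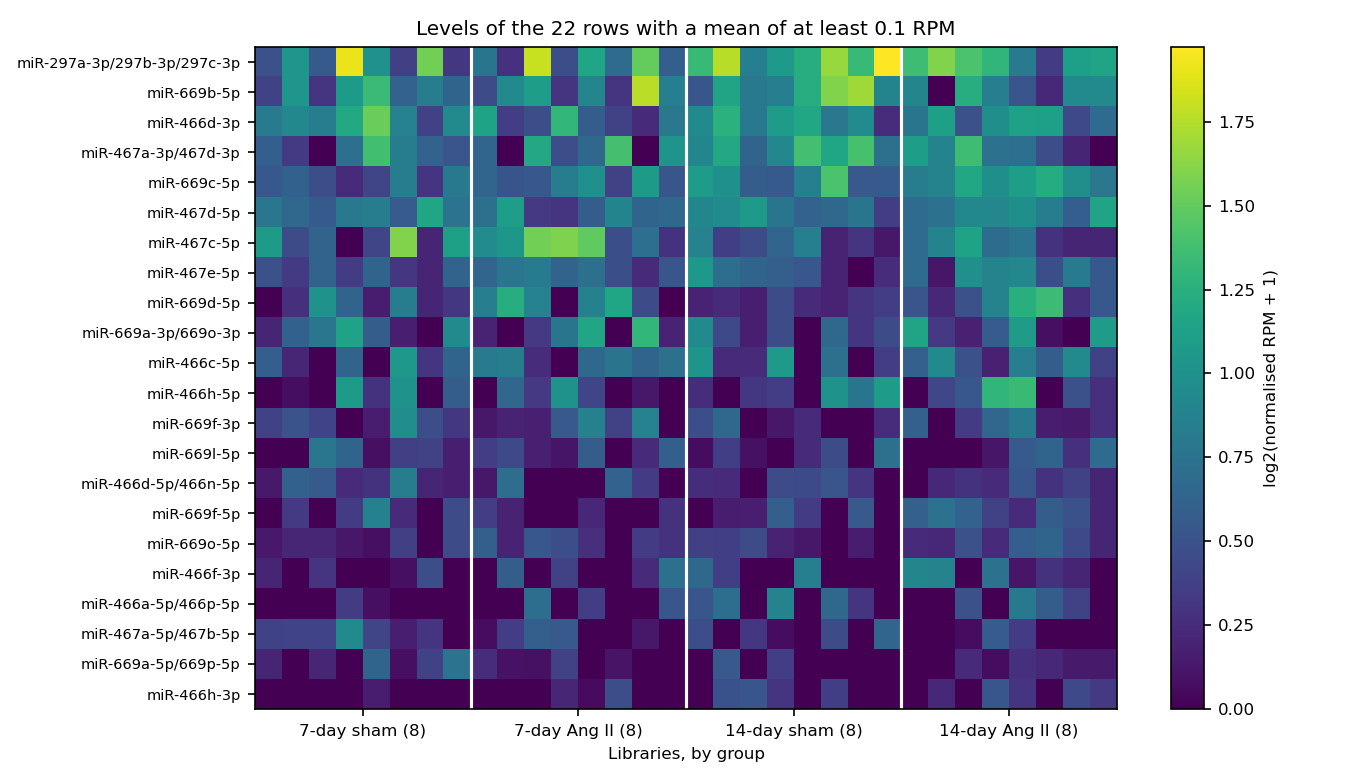
Level, as log2(normalised RPM + 1), of the 22 rows with a mean of 0.1 RPM or more (rows, highest mean on top) in the 32 libraries (columns, 8 per group between white lines). Bright cells are scattered over all 4 groups, and the top row is the miR-297a-3p row with a mean of 1.25 RPM.

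Single reads were a smaller share of the values above 0 than in other rows of like level. Of the 562 values above 0 in the 22 rows, 25 (4.45%) were a single read, against 11.3% in the 199 other rows with means in the same range. Multiples of 3 made 35.8% of the values in the 22 rows and 29.7% in the 199 others. The rows differed in this, and those named next were chosen after their values were seen. In miR-466c-5p, 21 of the 27 values above 0 were multiples of 3 and 0 were a single read. In miR-466h-5p, 12 of 22 were multiples of 4, and in miR-669b-5p 20 of 31 were multiples of 3. In miR-467a-3p 7 of 28 were multiples of 3, and in miR-466h-3p 0 of 13. The median ratio of variance to mean reads was 5.54 in the 22 rows and 3.48 in the 199 others. Whether reads were counted at several hairpin copies was not tested. PCR copies of 1 molecule cannot be told apart in such reads, so limits from counting cover counting error only.

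The arms of a hairpin often differed in level. Of 33 hairpin names with both arms listed, the 5p arm had the higher mean in 17 and the 3p arm in 15, and in 1 both were at 0. Names in a joint row share its values, so the 33 are not separate comparisons. The miR-297a-3p row served 3 of them. Both arm rows were the same for miR-466a and miR-466p, and for miR-466b and miR-466e. Summed over rows, the 5p arms held 6.70 ± 1.63 RPM and the 3p arms 4.46 ± 1.30 RPM (SD, n = 32). For miR-669c the 5p arm was above the 3p arm in 32 of 32 libraries, and miR-669c-3p was at 0 in each. For miR-669b the 5p arm was higher in 30 libraries, for miR-467c and miR-669d in 29, and for miR-467e in 28. The direction was opposite in miR-297a and miR-297c, whose shared 3p row was above the 5p arm in 32 of 32 libraries. It was also opposite in miR-466d, where the 3p arm was higher in 29. The arms of miR-467d stood near each other, with 0.710 RPM in 5p and 0.762 in 3p, the 5p arm being higher in 15 libraries and the 3p arm, a row joint with miR-467a-3p, in 16. Near-identical copies make such arm values uncertain, since how reads that map to several copies were counted is not given in the sources used here.

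High and low names were interspersed among those with 1 hairpin, none of which lay between 14.6 and 39.1 kb from the first hairpin. Of these names, miR-669b-5p lay 1.13 kb from the first hairpin and miR-467c-5p 7.27 kb from it. The name miR-669b-5p had 3 deposited rows of equal value though 1 hairpin was matched to it, so its reads cannot be tied to that place. The other high names lay toward the far end, with miR-467e-5p at 39.1 kb, miR-467d-5p at 41.0 kb, miR-669c-5p at 42.6 kb and miR-466d-3p at 45.3 kb. Names at 0, such as miR-669c-3p, lay among them. Names with several hairpins are not placed, since their reads cannot be assigned to a copy.

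**Figure D4:**
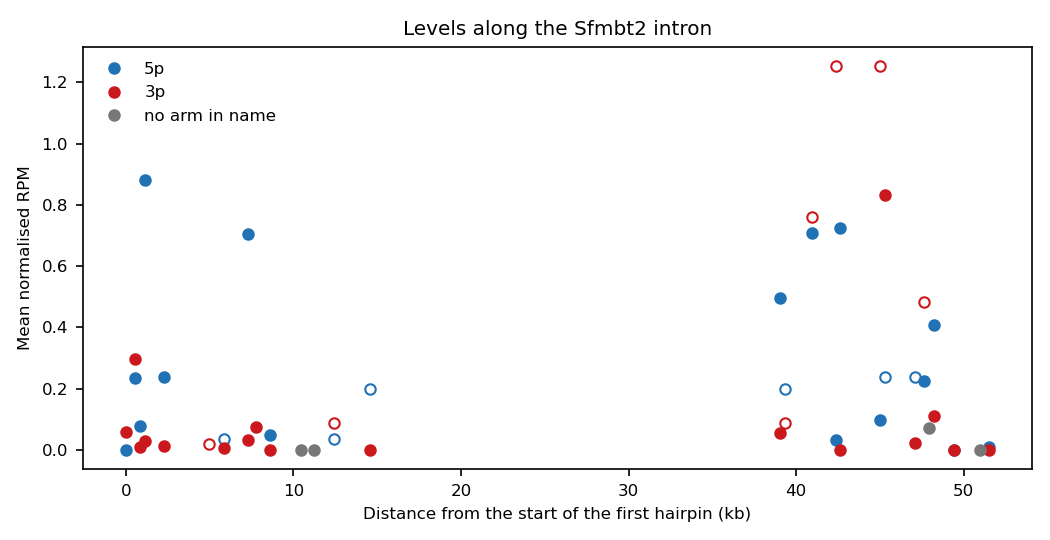
Mean normalised RPM over 32 libraries of names with 1 hairpin in Sfmbt2 against distance in kb from the start of the first hairpin, 5p arms in blue, 3p arms in red and names without an arm in grey. Open circles are names in a joint row, such as the miR-297b-3p and miR-297c-3p points at 1.25 RPM, which are a single row shown at both places.

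Ang II was compared with sham by limma-trend on log2(value + 1), adjusted by Benjamini-Hochberg over all rows tested, with calls at an adjusted p under 0.05. With a filter at a mean of 1 RPM, 52.7% of all distinct rows were tested and the miR-297a-3p row was the 1 member among them. It was not called in any of 6 comparisons, and its smallest limma adjusted p was 0.488. For Ang II its log2 fold change was 0.0066 ± 0.234 at 7 days and -0.26 ± 0.234 at 14 days (SE). The share of all tested rows called was 0.184% at 7 days, 6.45% at 14 days and 7.37% for the average of both times. It was 0% for the difference between the times (the interaction), 0% for 14-day against 7-day sham and 0% for 14-day against 7-day Ang II.

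The other rows were too low for that filter, so the fit was repeated on the 742 rows with a mean of 0.1 RPM or more, 22 of them members. At 7 days limma-trend called 0 of the 22 (0.135% of all rows were called), and 0 of the 22 had an unadjusted p under 0.05 (6.60% of all rows did). At 14 days it called 0 of the 22 (2.70% of all rows), and 2 had an unadjusted p under 0.05 (22.4% of all rows did). For the average over both times it called 0 of the 22 (5.39% of all rows), with 2 at an unadjusted p under 0.05 (22.5% of all rows). The median log2 fold change of the 22 was 0.029 at 7 days and 0.078 at 14 days, beside -0.0067 and 0.022 over all 742 rows. At 7 days 13 of the 22 were above 0 (48.2% of all 742 rows were), and at 14 days 15 were (54.0% of all rows). At these levels log2(value + 1) understates fold changes, and the SE of the 22 ran from 0.0875 to 0.231.

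The count test on recovered reads, edgeR's quasi-likelihood test, also called 0 of the 22 in each comparison. Over all 742 rows it called 0% at 7 days, 4.99% at 14 days, 7.01% for the average of both times, and 0% each for the interaction, 14-day against 7-day sham and 14-day against 7-day Ang II. Its smallest adjusted p among the 22 was 0.0722, for miR-669d-5p in the average over both times. DESeq2, run without its handling of outlier counts and its independent filtering, called 1 of the 22 in that average and 8.63% of all rows. The ranges of the Ang II and sham libraries were separate for 0 of the 22 at 7 days (0% of all rows) and for 0 of the 22 at 14 days (0.270% of all rows).

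**Figure D5:**
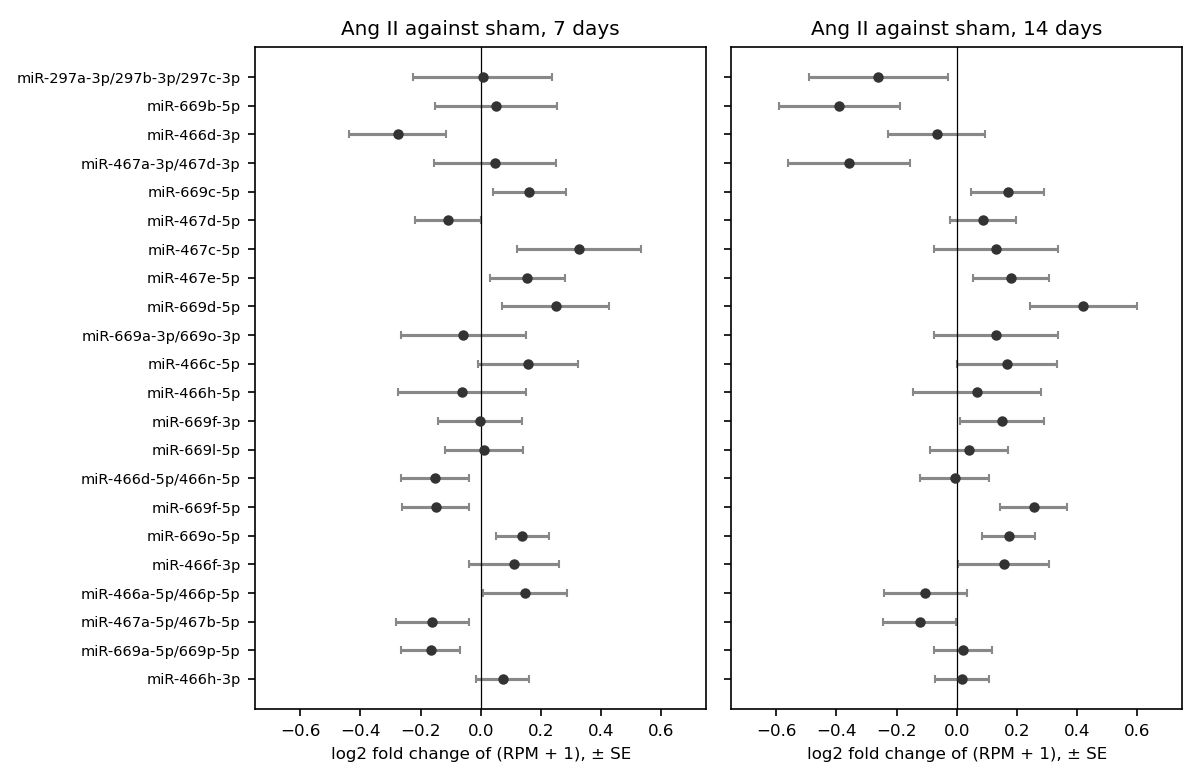
Log2 fold change of (normalised RPM + 1), Ang II against sham, with its SE, for the 22 rows at 7 days (left) and 14 days (right), by limma-trend over 742 rows. Values run from -0.28 to 0.33 at 7 days and from -0.39 to 0.42 at 14 days, and limma called 0 of them.

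The row that DESeq2 called was miR-669d-5p. In 14-day sham its level ran from 0.124 to 0.376 RPM with a median of 0.177, and in 14-day Ang II from 0.169 to 1.56 with a median of 0.449. In 7-day sham it ran from 0 to 1.02 RPM with a median of 0.229, and in 7-day Ang II from 0 to 1.35 with a median of 0.809. At 14 days 7 of 8 Ang II libraries were above the sham median, and the ranges overlapped at both times. Its log2 fold change was 0.42 ± 0.178 (SE) at 14 days (limma adjusted p = 0.167) and 0.34 ± 0.126 in the average over both times (limma adjusted p = 0.108). DESeq2 gave the average as 1.29 ± 0.446 (SE) on the log2 scale of reads, with an adjusted p of 0.0435. Within single mouse-number series (mice whose numbers share the leading digits 26, 27, 28 or 30), Ang II minus sham on the log2(value + 1) scale was 0.42 in series 26 at 14 days (5 against 6 libraries), and 0.28 and 0.16 in series 27 and 28 at 7 days.

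Other members of the miR-669 family had the next smallest p at 14 days. The level of miR-669f-5p ran from 0 to 0.517 RPM with a median of 0.120 in 14-day sham, where 5 of 8 libraries had a read, and from 0.154 to 0.675 with a median of 0.453 in 14-day Ang II, where 8 of 8 did. All 8 Ang II libraries were above the sham median, and the ranges overlapped. Its log2 fold change was 0.26 ± 0.112 (SE, limma adjusted p = 0.178). At 7 days reads were found in 4 of 8 Ang II and 5 of 8 sham libraries, and the difference between the times was 0.41 ± 0.158 (SE), with an unadjusted p of 0.0149 and a limma adjusted p of 0.862. For miR-669o-5p the range was 0 to 0.371 RPM in 14-day sham and 0.154 to 0.556 in 14-day Ang II, and its log2 fold change was 0.17 ± 0.0875 (SE, limma adjusted p = 0.233). Within series 26 at 14 days the differences were 0.31 for miR-669f-5p and 0.10 for miR-669o-5p.

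Some abundant rows had lower medians with Ang II at 14 days, also without a call. For miR-669b-5p the 14-day sham libraries ran from 0.439 to 2.22 RPM with a median of 1.04, and the Ang II libraries from 0 to 1.35 with a median of 0.834. The ranges overlapped, and 1 of 8 Ang II libraries was above the sham median. Its log2 fold change was -0.39 ± 0.202 (SE, limma adjusted p = 0.243), and -0.32 within series 26. For miR-467a-3p it was -0.36 ± 0.202 (SE, limma adjusted p = 0.288), from 0.556 to 1.64 RPM in sham and 0 to 1.57 RPM with Ang II, and -0.075 within series 26. For miR-466d-3p it was -0.07 ± 0.161 and for miR-669c-5p 0.17 ± 0.122 (SE, limma adjusted p = 0.858 and 0.402).

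At 7 days the smallest p among the 22 were those of the joint row miR-669a-5p/miR-669p-5p, miR-466d-3p and miR-669o-5p. The miR-669a-5p row ran from 0 to 0.679 RPM in sham and 0 to 0.311 RPM with Ang II, a log2 fold change of -0.17 ± 0.0973 (SE, limma adjusted p = 0.778). For miR-466d-3p the sham libraries ran from 0.309 to 1.87 RPM with a median of 0.865, and the Ang II libraries from 0.185 to 1.48 with a median of 0.440. Its log2 fold change was -0.28 ± 0.161 (SE, limma adjusted p = 0.778), and the ranges overlapped. For miR-669o-5p it was 0.14 ± 0.0875 (SE, limma adjusted p = 0.796). Within series 27 (5 Ang II against 4 sham libraries) the differences were 0.062 for miR-669a-5p, -0.17 for miR-466d-3p and 0.24 for miR-669o-5p. Within series 28 (3 against 4) they were -0.43, -0.46 and -0.014, so the signs of miR-669a-5p and miR-669o-5p were not the same in both series. Of the other abundant rows, miR-669c-5p had 0.16 ± 0.122, miR-669b-5p 0.05 ± 0.202 and miR-467a-3p 0.05 ± 0.202 (SE, limma adjusted p from 0.847 to 0.986).

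The 14-day and 7-day groups were compared as well, with the limit that most 14-day mice carry numbers of series 26 and all 7-day mice numbers of series 27 or 28, so time and series cannot be told apart for most libraries. Between the sham groups limma-trend called 0 of the 22 (0% of all 742 rows), and 5 had an unadjusted p under 0.05, beside 3.77% of all rows. Between the Ang II groups it called 0 of the 22 (0% of all rows) with 2 at an unadjusted p under 0.05 (7.14% of all rows). For the interaction it called 0 of the 22 (0% of all rows) with 1 at an unadjusted p under 0.05 (5.12% of all rows). For miR-669c-5p the median was higher at 14 days in both pairs. Its level ran from 0.184 to 0.776 RPM with a median of 0.423 in 7-day sham, and from 0.468 to 1.67 with a median of 0.651 in 14-day sham. With Ang II it ran from 0.309 to 1.11 RPM with a median of 0.504 at 7 days and from 0.716 to 1.33 with a median of 0.967 at 14 days. In each pair 8 of 8 later libraries were above the earlier median while the ranges overlapped. The log2 fold changes were 0.30 ± 0.122 between sham groups and 0.31 ± 0.122 between Ang II groups (SE, limma adjusted p = 1.00 and 0.577). For miR-669f-5p the change between the Ang II groups was 0.35 ± 0.112 (SE, limma adjusted p = 0.548), with an unadjusted p of 0.00342, the smallest limma gave for the 22 rows in the 6 comparisons. Between the sham groups the miR-297a-3p row had 0.50 ± 0.231 (SE, limma adjusted p = 1.00). In the same comparison the miR-466a-5p/miR-466p-5p row had 0.33 ± 0.139 and miR-466h-3p 0.19 ± 0.089 (SE, limma adjusted p = 1.00 for both). The first had reads in 2 of 8 libraries at 7 days and 5 of 8 at 14 days, and the second in 1 and 4 of 8.

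Markers of the vessel wall and of other cells had the following levels at 14 days. The summed level of 4 of 4 smooth muscle miRNAs ran from 317571 to 739444 RPM in sham and from 196039 to 565287 RPM with Ang II. That of the endothelial list (2 of 4 names found, miR-126-3p and miR-126-5p) ran from 16900 to 35282 RPM in sham and from 12975 to 25109 RPM with Ang II. The group means of both, and of the epithelial and pancreatic lists, were lower with Ang II, and those of the red blood cell and leukocyte lists were higher. The summed level of the red blood cell list (4 of 7 names found) ran from 5948 to 50259 RPM in sham and from 14971 to 53131 RPM with Ang II. That of the leukocyte list (5 of 7 names found) ran from 539.4 to 1017 RPM in sham and from 612 to 1369 RPM with Ang II. That of 7 of 7 epithelial miRNAs ran from 1336 to 5015 RPM in sham and from 1119 to 1750 RPM with Ang II. That of 3 of 3 pancreatic miRNAs ran from 1856 to 7942 RPM in sham and from 1812 to 3284 RPM with Ang II. At 7 days the red blood cell sum ran from 9645 to 47778 RPM in sham and from 13010 to 68907 RPM with Ang II, and the leukocyte sum from 624 to 899 and from 587 to 1573 RPM. The 7-day means in sham and with Ang II were 503304 and 505957 RPM for smooth muscle, 22943 and 22522 for endothelium, 2297 and 2070 for epithelium, and 4248 and 4188 for pancreas. Their part in the values of miR-669d-5p and the other rows was not tested.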

How the data were processed

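Small RNA libraries (TruSeq kit, HiSeq instrument) from the mesenteric arteries of 32 mice were grouped by the labels. The authors deposited 1 signal value per miRNA row and library, with no stated unit. The submitters' processing notes name the mm10 build and the tools STAR 2.3.1, edgeR 3.6.8, R 3.2.3, bcl2fastq 1.8.4 and FastQC. Their roles, the miRNA annotation and how reads mapping to several copies were counted are not given in the sources used here. Of the deposited signal values 100% were whole multiples of a library's step, within 0.001 read, so whole reads were recovered, and 0 columns belonged to other samples.

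Of several rows with one name, that of the highest mean stood for it, and 38 of the 80 names had several rows. The values are normalised, so limma-trend on log2(value + 1) was used (R 4.3.3 and limma 3.58.1), with 1 mean per group over 32 libraries, two-sided. Rows with a mean of at least 1 were tested, and again those of at least 0.1. Count tests on recovered reads were edgeR 4.0.16 and DESeq2 1.42.0, which called 54 and 61 rows at 14 days among those with a mean of at least 1. The fits were run on simulated counts that had the same spread setting for all rows. The mark set there for finding large changes applied to rows with a mean of at least 1 only. It therefore does not show how well changes in lower rows would be found. Each library carries its own mouse number.

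The members and lists were chosen with earlier results of these data known. Named rows were the 12 highest, any called row, the 3 with the smallest p in each comparison, partner arms, and those just inside and outside a mean of 1 or 0.1. Alternatives were other scalings (TMM, RLE, library totals), filters, pseudocounts of 0.5 and 10, limma-voom, the compared groups alone, the mouse-number series or the first principal component as a term, summed rows of repeated names, and each library left out. Repeating these from a mean of at least 0.1 was chosen after seeing the data.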

Additional observations from a re-analysis of the deposited data

Results flagged for a closer look

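Of 92 sets of 8 libraries looked at (23 measures in 4 groups), 6 had a library far from the other 7 by Dixon's test. The gap to the next value was over 0.526 of the range. For normally distributed values that mark is passed in about 1 in 20 sets. Many sets here are sparse counts with values at 0, so that rate does not carry over to them. In 7-day Ang II, replicate 7 had 2.40 RPM of miR-669b-5p, and the other 7 libraries had 0.231 to 1.16 RPM. In 7-day sham, replicate 7 had 1.23 RPM of miR-467d-5p, against 0.471 to 0.772 in the others. In 7-day sham, replicate 5 had 0.827 RPM of miR-669f-5p, against 0 to 0.370 in the others. In 7-day sham, replicate 4 had 0.276 RPM (3 reads) of miR-466a-5p/miR-466p-5p, against 0 to 0.0551 in the others. For miR-466h-3p, replicate 5 of 7-day sham had 0.110 RPM (2 reads) where the others were at 0. In 7-day Ang II, replicate 6 had 0.386 RPM (5 reads) of it where the others had 0 to 0.155.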

How the results depend on the processing

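limma-trend called 0 members in the 6 comparisons under every alternative run with it, with any 1 library left out too, and edgeR and limma-voom called 0. Calls were few over all rows too. Of the 742 rows limma-voom called 1 at 7 days, 3 at 14 days and 31 in the average. It called 0 of them in each other comparison. DESeq2 called 1 member of 22 (miR-669d-5p, log2 1.29) in the average Ang II effect. Its handling of outlier counts and its independent filtering were switched off, and libraries were left out with limma-trend only. Among the 22 rows, the median log2 fold change under edgeR, DESeq2 and limma-voom was 0.17, 0.12 and 0.17 at 7 days and 0.29, 0.31 and 0.37 at 14 days. It was 0.10, 0.12 and 0.16 between sham groups, 0.28, 0.25 and 0.36 between Ang II groups, and 0.27, 0.22 and 0.24 in the average. Over all 742 rows the medians were 0.0044, 0.0047 and -0.030 at 7 days, and 0.039, 0.040 and 0.024 at 14 days. Between sham groups they were 0.022, 0.019 and -0.0088, and between Ang II groups 0.042, 0.042 and 0.054. In the average they were -0.0032, -0.0071 and -0.022. These tests use no pseudocount of 1. With library totals alone the 14-day median was 0.18. Between sham groups, the value of 0.50 for the rows above 1 RPM became -0.010 with no filter, 0.0069 at a mean of at least 0.1, 1.05 with limma-voom and -0.19 with repeated rows summed, settings which, apart from limma-voom, change the rows included.

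Signs turned for some uncalled rows, and the cause was not tested. For miR-297a-3p at 7 days the value was -0.00031 with RLE factors, -0.0015 with a pseudocount of 10 and -0.0027 with the series as a term, and -0.12 to 0.15 with a library left out. For miR-669b-5p at 7 days it was -0.14 with limma-voom, and -0.084 to 0.13 with a library left out. For miR-467a-3p at 7 days it was -0.077 with limma-voom and -0.074 with rows summed, and -0.055 to 0.16 with a library left out. For miR-466d-3p at 14 days it was 0.041 with library totals and 0.027 with the series as a term. For miR-466h-3p between sham groups it was -0.0089 with the series as a term.

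With at least 3 reads asked, rows detected fell to 17.4 in 7-day sham, 16.5 in 7-day Ang II, 16.1 in 14-day sham and 19.6 in 14-day Ang II. Summing the rows of repeated names gave summed levels of 37.6 and 40.7 RPM in 7-day and 14-day sham. In 7-day and 14-day Ang II it gave 36.1 and 37.2 RPM. These levels were over 3 times higher, with Ang II below sham at both times, a turned direction. Rows of the same name differed in value for 10 of the 38 repeated names, so for the others this sum counted equal values again. Library totals gave 15.1 RPM in 14-day Ang II and 11.7 RPM in 14-day sham, and 11.6 and 10.2 RPM at 7 days. The 14-day Ang II mean includes replicate 5, which had the highest share of reads, 0.00297%. No member had a mean of at least 10 RPM, so that filter gave no value. No paired analysis was possible because replicate numbers only name libraries in accession order. Depth limits all of this, since the median reads per library of the 22 rows ran from 0 to 20.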
